A study of Mus musculus with 4 samples.

Results

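Cadherins are surface proteins that hold neighbouring cells together through calcium-bound repeats outside the cell. Classical cadherins bind the same cadherin on the next cell and are tied to actin inside the cell by catenins. Protocadherins are the larger branch: the clustered ones are transcribed from alternative promoters in 3 neighbouring arrays (alpha, beta and gamma) and give neurons their surface identity, whereas the non-clustered ones are single genes. Most of these genes are known from epithelia, endothelium, muscle and the nervous system rather than from macrophages.

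Chromatin accessibility was examined at every region whose nearest gene, as named in the deposited tables, was a cadherin (Cdh followed by a number) or a protocadherin (Pcdh). The rule found 105 of 80929 regions, named after 42 of 26614 genes: 18 Cdh genes with 49 regions, 6 non-clustered Pcdh genes with 37 regions and 18 clustered Pcdh genes with 19 regions. RefSeq lists 92 protein-coding mouse genes whose symbols fit the same rule, and 41 of them had a region; the remaining member, Pcdhgb8, is listed there as a pseudogene. No region was named after Cdh2 (N-cadherin), Pcdh1, Pcdh9 or Pcdh10. A region is assigned by nearness alone, so a region of a gene may lie outside it, and no gene structure of the files' genome build was used here.

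The assay was ATAC-seq, in which a transposase cuts open chromatin, on RAW264.7, a mouse macrophage-like tumour line, plated at 1000000 cells per well and cultured for 48 h. The groups were CuNZ@Gel with 2 libraries and Gel with 2 libraries. The study's title names a nanozyme hydrogel, and the protocol text, which is the same for all 4 libraries, names CuNZ@Gel alone, so the Gel group is known from its titles only. The labels do not say that the libraries came from separate cultures, so the p-values measure the spread between libraries, which may be technical. Values are RPM, the reads in a region on the authors' scale, which is not plain scaling to a library of 1000000 reads. Before that scaling, each library's reads in regions are in effect multiplied by a factor. The factor, recovered here, was 1.108 and 1.099 in CuNZ@Gel and 0.910 and 0.902 in Gel. The resulting scale is close to median-of-ratios scaling, and on it the median change of all tested regions was -0.004. The authors deposited log2(RPM + 1). Changes below are differences on that log2 scale, CuNZ@Gel minus Gel, which understate the change of low regions.

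Reads in regions numbered 7440811 and 10236646 in CuNZ@Gel and 18843728 and 17915096 in Gel. On the authors' scale 1 read was worth 0.121 and 0.0889 RPM in CuNZ@Gel and 0.0583 and 0.0619 RPM in Gel. Scaled to the reads in regions (library totals), it was worth 0.134 and 0.0977 RPM in CuNZ@Gel and 0.0531 and 0.0558 RPM in Gel. Across all tested regions the change fell with the level: its median was 0.41 in the lowest bin of levels and -0.81 in the highest. The authors' genome background, recovered from their peak folds, was 1.167 and 1.202 reads of pileup per base in CuNZ@Gel and 1.003 and 0.963 in Gel. Depth, background and group cannot be told apart in this design. The counts of calls over all member regions and genes are therefore also given in other ways. The trend of change with level was removed (cyclic loess), or libraries were scaled to the background. Some counts for parts of the members are given on the authors' scale only.

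The promoters of 3 genes on which the results turn are printed from RefSeq 5′ to 3′ on the strand of each gene, 250 bases before to 50 bases after the start site. Pcdh7 held the most regions of any member, Pcdh15 was called higher, and Cdh15 was the cadherin called lower at all of its regions. Capitals mark the E-box CACCTG or its reverse CAGGTG, the site read by the Snail and ZEB repressors of E-cadherin. Coordinates are in GRCm38.p6, another build than that of the regions, and whether a deposited region covers these windows was not examined.
Pcdh7, chr5:57717831-57718130, plus strand: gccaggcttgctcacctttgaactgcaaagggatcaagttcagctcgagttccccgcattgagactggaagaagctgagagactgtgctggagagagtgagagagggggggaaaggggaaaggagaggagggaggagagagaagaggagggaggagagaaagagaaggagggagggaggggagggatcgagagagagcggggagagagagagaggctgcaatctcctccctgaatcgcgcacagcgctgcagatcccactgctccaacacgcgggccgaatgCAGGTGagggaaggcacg
Pcdh15, chr10:73821617-73821916, plus strand: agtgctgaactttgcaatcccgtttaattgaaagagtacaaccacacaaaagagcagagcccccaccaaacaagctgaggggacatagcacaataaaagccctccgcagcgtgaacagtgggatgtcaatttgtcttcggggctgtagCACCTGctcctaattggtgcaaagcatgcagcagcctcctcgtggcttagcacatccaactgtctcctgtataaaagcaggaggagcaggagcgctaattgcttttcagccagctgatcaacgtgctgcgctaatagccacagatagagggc
Cdh15, chr8:122848124-122848423, plus strand: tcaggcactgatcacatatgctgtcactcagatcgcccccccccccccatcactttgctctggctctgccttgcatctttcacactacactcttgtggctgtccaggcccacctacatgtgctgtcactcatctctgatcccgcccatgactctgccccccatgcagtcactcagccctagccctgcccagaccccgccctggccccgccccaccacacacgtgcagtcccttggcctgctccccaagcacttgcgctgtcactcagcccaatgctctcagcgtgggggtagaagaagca
The E-box lies 32 bases after the start site in Pcdh7 and 102 bases before it in Pcdh15, and the Cdh15 window holds none. The table of promoters matched 16 of the 42 members. An E-box on either strand was found in 3 of these 16 promoters (Cdh7, Pcdh15 and Pcdh7), against 20% of all 27025 promoters. The AP-1 site TGANTCA was in 0 of 16 promoters, against 7.93% of all, and the ETS core GAGGAAG or CTTCCTC was in 3 of 16 (Cdh6, Cdh18 and Cdh22), against 13.5% of all. The member promoters had a median GC content of 59.8%, against 52.7% for all promoters.

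Both directions of change occurred among the members, and most members did not pass the test. Of 93 member regions with enough reads to test, 23 were higher in CuNZ@Gel than in Gel and 11 were lower at an adjusted p under 0.05 (limma, Benjamini-Hochberg over 77014 regions). The background shares were 21.2% higher and 21.9% lower over all tested regions, against 24.7% and 11.8% of the member regions. The filter on low values, 10 reads at the median depth in 2 libraries, was passed only through the CuNZ@Gel libraries by 4 member regions, of which 3 are among the 23 (Pcdh7 region 15 and the regions of Cdh20 and Pcdhb1), leaving 20; no member region passed only through the Gel libraries. The median change was 0.07 over the member regions and -0.004 over all regions. In bulk chromatin, fewer open cells and less opening per cell cannot be told apart. With the trend removed, 16 member regions were higher and 10 lower, against 18.8% and 13.8% of all regions. On library totals, 27 were higher and 3 lower, against 30.1% and 11.9%. Scaled to the background, 3 were higher and 39 lower, against 4.87% and 60.6% of all regions, and the median of all regions moved to -0.82. The CuNZ@Gel libraries lay entirely above the Gel libraries in 32 of the 93 member regions (33.7% of all regions did so) and entirely below in 19 (34.6%). Fits with a library left out keep a single library in its group. The share of all regions called in them is not given here, so losses of member calls under omission have no background.

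Summed over the regions of each gene, 7 of 37 tested genes were higher in CuNZ@Gel and 4 were lower, against a background of 20.5% and 36.1% over 25900 tested genes. The 7 higher genes were Cdh20, Pcdhb4, Pcdhb1, Pcdh12, Cdh1, Pcdh15 and Cdh7, with changes of 0.96, 0.96, 0.91, 0.56, 0.44, 0.43 and 0.40. Cdh20 and Pcdhb1 passed the filter on low values only through the CuNZ@Gel libraries, so a rise was the sole change they could show, and 5 higher genes are left without them. The 4 lower genes were Pcdh19, Cdh15, Pcdhgc3 and Pcdha8, with changes of -0.67, -0.57, -0.52 and -0.46. None of the 7 higher calls held under every omission of a single library, whereas the lower calls of Cdh15 and Pcdhgc3 did. The share of all genes called under such omissions is not given here, so these losses have no background either. With the trend removed, 5 genes were higher (background 24.2%) and 5 lower (22.8%). Scaled to the background, 0 were higher (2.78%) and 26 lower (75.5%), and on library totals 12 were higher (34.3%) and 1 lower (18.7%). The groups did not overlap in 11 genes with CuNZ@Gel above Gel (30.9% of all genes) and in 9 with CuNZ@Gel below (45.9%).

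**Figure D1:**
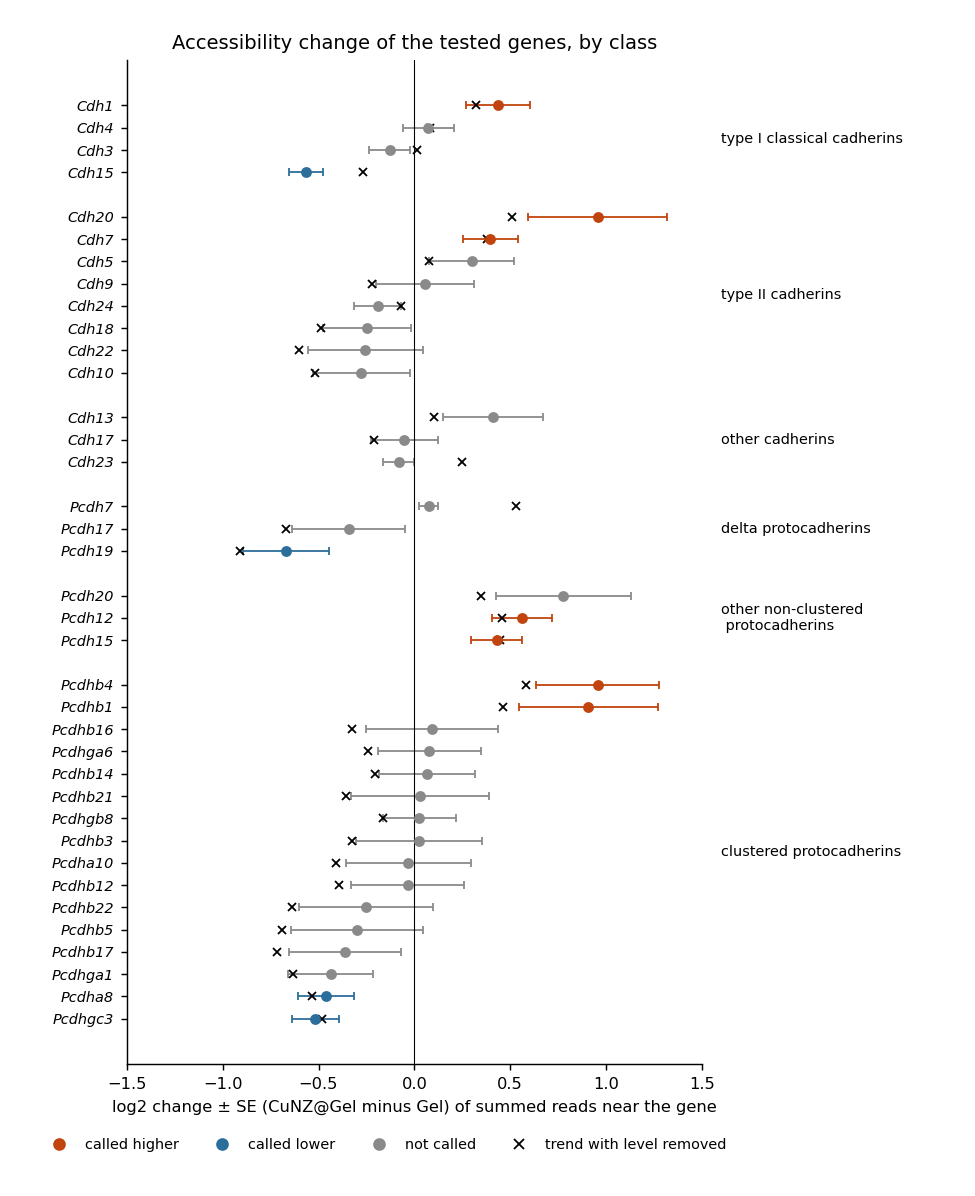
Change in normalised read count, CuNZ@Gel minus Gel, in log2 units for the 37 tested cadherin and protocadherin genes, summed over the regions of each gene, with the standard error of the limma fit; crosses give the change with the trend of change with level removed. The 7 genes called higher run from 0.40 to 0.96 and the 4 called lower from -0.67 to -0.46, and the other genes did not pass the test.

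Pcdh7, a non-clustered protocadherin of the delta-1 subfamily known mainly from brain, held 27 of the 105 regions, spread over 585 kb of chromosome 5. In the data, 21 genes including Pcdh7 had at least as many regions, against a median of 2 per gene. On the authors' scale the Pcdh7 regions moved in opposite directions. The region with the most reads was lower in CuNZ@Gel, and 12 of the 23 tested regions beyond it, on the side of higher coordinates, were higher. Region 15 is among these 12 and passed the filter on low values only through the CuNZ@Gel libraries.

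The region with the most reads (region 3 of the gene, chr5:57871989-57874063 in GRCm39, 2075 bases) had 61.9 and 61.6 RPM in the CuNZ@Gel libraries, against 104 and 102 RPM in the Gel libraries. All CuNZ@Gel values were below all Gel values. Per kb, its mean level was 29.7 RPM in CuNZ@Gel and 49.5 RPM in Gel. The change was -0.73 ± 0.07 (SE), with an adjusted p of 1.30e-11 in limma. All regions of about the same level had a median change of -0.65, and with the trend removed the change was -0.06 (adjusted p = 0.589). The small region just before it (region 2, chr5:57871519-57871697) had 2.79 and 2.04 RPM in CuNZ@Gel, against 4.61 and 4.64 RPM in Gel, a change of -0.73 that was not called without CuNZ@Gel replicate 2 (adjusted p = 0.0807), Gel replicate 1 (0.108) or Gel replicate 2 (0.116), nor on library totals (-0.51).

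The 12 higher regions lay between 40.3 and 347 kb from region 3 and changed by 0.66 to 1.64. Region 15 (chr5:57943762-57943991) had 2.91 and 4.44 RPM in CuNZ@Gel, against 0.35 and 0.619 RPM in Gel. Its reads numbered 24 and 50 in CuNZ@Gel and 6 and 10 in Gel, and both Gel values lay under the minimum of the filter. Its change of 1.64 ± 0.30 (SE), or 1.07 with libraries scaled to the background, is therefore given as a description.
Region 12 had 6.67 and 9.06 RPM in CuNZ@Gel, against 3.68 and 2.47 RPM in Gel, a change of 1.12 ± 0.22 (SE; adjusted p = 3.51e-05). Region 8 had 13.1 and 14.5 RPM in CuNZ@Gel, against 7.12 and 6.38 RPM in Gel, a change of 0.93 ± 0.17 (SE; adjusted p = 8.08e-06). In these 3 regions the groups did not overlap. All regions of about the level of region 12 had a median change of 0.05 and a 90th percentile of 1.12. At about the level of region 8 these were -0.03 and 0.97. Of the 12 regions, 10 stayed called higher under each omission of a library and with the trend removed. Both counts include region 15, which could only rise. The exceptions were region 13, at 0.76, which was not called without CuNZ@Gel replicate 2 or Gel replicate 2, and region 24, at 0.77, which was called only without CuNZ@Gel replicate 1. The other 11 tested regions beyond region 3 were not called, with changes from -0.19 to 0.70. Scaled to the background, 1 of the 23 tested regions beyond region 3 was called higher, and it was region 15. On that scale 4 of the 23 were called lower. The shares of all regions were 4.87% higher and 60.6% lower.

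**Figure D2:**
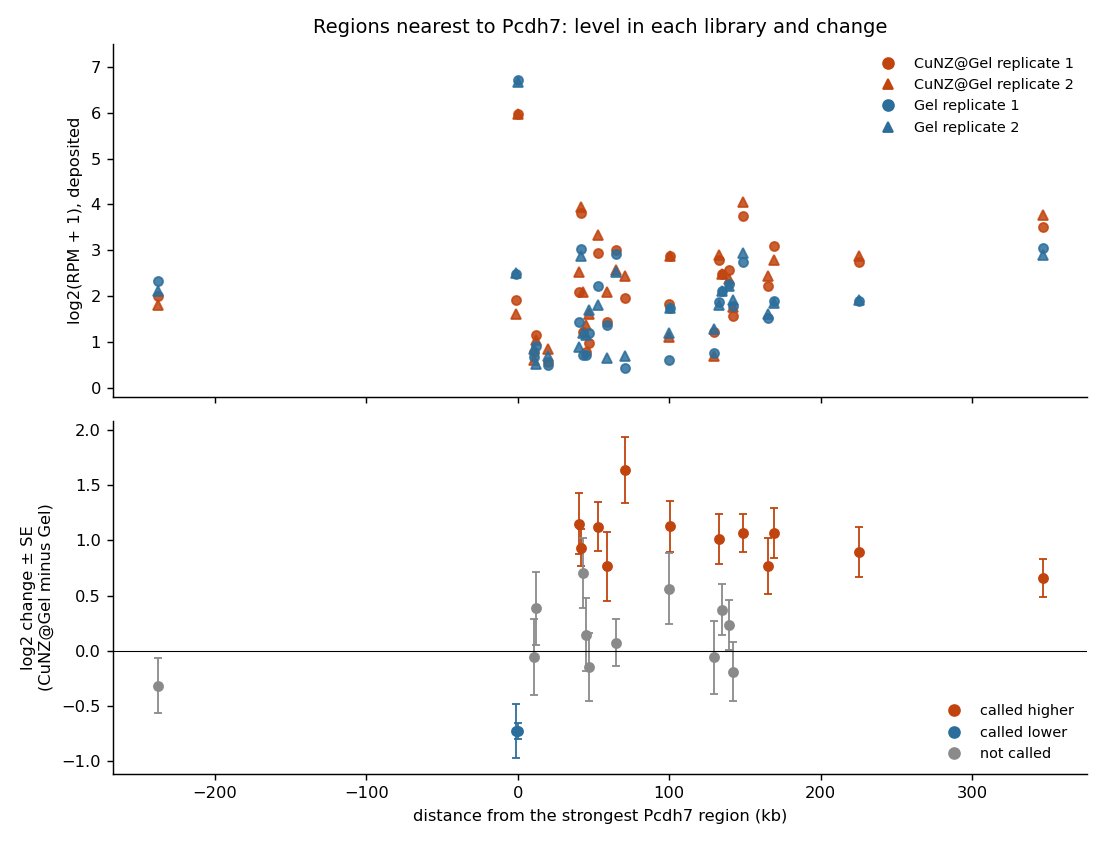
Normalised read counts of the 27 Pcdh7 regions in the 2 CuNZ@Gel and 2 Gel libraries and the change between groups, by distance from the region with the most reads. That region had 61.9 and 61.6 RPM in CuNZ@Gel and 104 and 102 RPM in Gel, and the 12 regions called higher lie 40.3 to 347 kb beyond it.

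The opposed changes nearly cancelled in the sum. Over its 27 regions Pcdh7 had 175 and 187 RPM in CuNZ@Gel, against 174 and 170 RPM in Gel, a change of 0.07 ± 0.05 (SE; adjusted p = 0.217). Region 3 held 35.3% and 32.9% of these reads in CuNZ@Gel, against 59.7% and 59.9% in Gel, and the regions outside it held 113 and 126 RPM in CuNZ@Gel, against 70.1 and 68.1 RPM in Gel. The call on the sum depended on the scaling: with the trend removed the gene was higher, at 0.53 (adjusted p = 2.03e-09), on library totals it was higher at 0.36, and scaled to the background it was lower at -0.98. Without Pcdh7, 11 of 67 tested member regions were higher and 9 were lower, which is 16.4% and 13.4%, against the 21.2% and 21.9% of all regions. Among the 69 genes with at least 20 tested regions, the median share of higher regions was 25%, against 46.2% for Pcdh7, and 6 genes including Pcdh7 had a share as high. The share for Pcdh7 counts region 15. The region with the most reads was lower in 48 of these 69 genes, and 3 genes combined both features.

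The remaining delta protocadherins with a region, Pcdh19 and Pcdh17, had few reads. Pcdh19, an X-linked delta-2 member whose loss in humans causes an epilepsy, had 1 region with 2.67 and 3.47 RPM in CuNZ@Gel, against 5.25 and 5.63 RPM in Gel. The groups did not overlap, and the gene was lower at -0.67 ± 0.22 on the log2 scale (SE; adjusted p = 0.0157). The call was lost without CuNZ@Gel replicate 1 (adjusted p = 0.0654), Gel replicate 1 (0.0795) or Gel replicate 2 (0.135) and on library totals (-0.44, adjusted p = 0.107), and it stood with the trend removed, at -0.91. Pcdh17, a delta-2 member of synapses, had 1.21 and 2.31 RPM over its 2 regions in CuNZ@Gel and 3.03 and 1.92 RPM in Gel, and was not called (-0.34, adjusted p = 0.341). Pcdh20, a further non-clustered gene, had 0.97 and 1.07 RPM in CuNZ@Gel, against 0.0585 and 0.309 RPM in Gel, which are 8 and 12 reads against 1 and 5 reads. It passed the filter on low values only through the CuNZ@Gel libraries, its groups did not overlap, and its change of 0.78 was not called (adjusted p = 0.0666).

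The other non-clustered protocadherins, Pcdh12 and Pcdh15, were both higher. Pcdh12, also called vascular endothelial cadherin-2, had 1 region on chromosome 18 with 14.4 and 13.3 RPM in CuNZ@Gel, against 9.74 and 8.48 RPM in Gel. The groups did not overlap, and the change was 0.56 ± 0.16 (SE; adjusted p = 0.00476); it was 0.47 without Gel replicate 2, with an adjusted p of 0.0702. Pcdh15, which forms the lower part of the tip links that pull on the transduction channels of hair cells in the inner ear, had 19.9 and 22.7 RPM over its 5 regions in CuNZ@Gel, against 16.4 and 14.7 RPM in Gel. Its sum was higher by 0.43 ± 0.13 (SE; adjusted p = 0.00878), a call lost without CuNZ@Gel replicate 2 (adjusted p = 0.0725) or Gel replicate 2 (0.097). Within the gene, regions 2 and 3 were higher, at 0.75 and 0.43, and no region was lower; region 2 was not called with the trend removed (0.45). With the trend removed Pcdh12 and Pcdh15 stayed called, at 0.46 and 0.45, whereas scaled to the background Pcdh15 was lower, at -0.57, and Pcdh12 was not called, at -0.41.

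Among the classical type I cadherins, Cdh15 was lower, Cdh1 was higher in its sum, and Cdh3 and Cdh4 were not called. Cdh15 encodes M-cadherin, known from muscle precursor cells. Its 3 regions on chromosome 8 summed to 40.9 and 36.6 RPM in CuNZ@Gel, against 56.4 and 59.1 RPM in Gel, and the groups did not overlap. The change was -0.57 ± 0.09 (SE; adjusted p = 1.58e-05), was called under each omission of a library, and was -0.27 with the trend removed (adjusted p = 0.0162). All 3 regions were lower, at -0.41, -0.50 and -0.64, and the last was the only one called under every omission. Region 1 was not called with the trend removed (-0.32), and on library totals neither region 1 (-0.14) nor region 2 (-0.24) was.

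Cdh1 encodes E-cadherin, the main adhesion molecule of epithelia, which macrophages can make on alternative activation. Its 2 regions differed. Region 1 had 5.22 and 7.20 RPM in CuNZ@Gel and 7.06 and 7.12 RPM in Gel, overlapping between groups, and was not called (-0.18, adjusted p = 0.503). Region 2 (chr8:107346245-107346832) had 5.70 and 7.11 RPM in CuNZ@Gel, against 1.92 and 1.86 RPM in Gel. These were 47 and 80 reads in CuNZ@Gel and 33 and 30 reads in Gel. The groups did not overlap, and region 2 was higher by 1.35 ± 0.24 (SE; adjusted p = 5.54e-06), a call that every omission of a library and the removal of the trend (1.19) left in place. Scaled to the background its change was 0.54 (adjusted p = 0.0758). The sum of both regions was higher by 0.44 ± 0.17 (SE; adjusted p = 0.0317), and this call was lost without CuNZ@Gel replicate 2 (adjusted p = 0.243), Gel replicate 1 (0.108) or Gel replicate 2 (0.111) and with the trend removed (0.119). Scaled to the background the sum was lower, at -0.53 (adjusted p = 0.0411).

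Cdh3, the P-cadherin of placenta and hair follicles, had 26.7 and 24.7 RPM over its 5 regions in CuNZ@Gel and 27.8 and 28.6 RPM in Gel; the change of -0.13 was not called, and none of its regions was. Cdh4, the R-cadherin of retina and kidney, had 19.2 and 17.1 RPM over 6 regions in CuNZ@Gel and 18.4 and 16.0 RPM in Gel, and neither the sum (0.07) nor any of its 5 tested regions was called.

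The type II cadherins, which are expressed mostly in nervous tissue, vessels and mesenchyme, gave 2 higher genes and no lower gene among 8 tested, against the 20.5% and 36.1% of all genes. With the trend removed, 1 was higher and 0 were lower, against 24.2% and 22.8%. Cdh7 had 19.8 and 17.0 RPM over 2 regions in CuNZ@Gel, against 12.5 and 14.9 RPM in Gel, with no overlap. The change of 0.40 ± 0.14 (SE; adjusted p = 0.0229) was lost without CuNZ@Gel replicate 1 (adjusted p = 0.151) or Gel replicate 1 (0.236), and scaled to the background the sum was lower, at -0.60 (adjusted p = 0.02). It came with region 2 (chr1:109848303-109848591), which had 6.06 and 4.09 RPM in CuNZ@Gel, against 0.992 and 1.11 RPM in Gel, a change of 1.55 ± 0.27 (SE; adjusted p = 3.90e-06) that was called under every omission and with the trend removed. Region 1 of Cdh7 had 13.7 and 12.9 RPM in CuNZ@Gel and 11.5 and 13.8 RPM in Gel and was not called (0.07).
Cdh20 had a single region with 9 and 9 reads in CuNZ@Gel and 0 and 0 reads in Gel. On the authors' scale the lower CuNZ@Gel library stood 4.31-fold above a floor of 3 reads in the Gel library where a read is worth most. The floor covers counting error in Gel only, and the 9 reads in CuNZ@Gel were taken as they stand. The ratio is therefore not a lower bound on the change. Cdh20 passed the filter on low values only through the CuNZ@Gel libraries, so its place among the higher genes is a description. It was not called without CuNZ@Gel replicate 1, Gel replicate 1 or Gel replicate 2, with the trend removed or scaled to the background (0.72).
Cdh5, VE-cadherin of endothelium, had 4.61 and 6.22 RPM over 3 regions in CuNZ@Gel and 4.61 and 3.78 RPM in Gel and was not called (0.30, adjusted p = 0.265). Cdh24 had 20.7 and 26.6 RPM in its single region in CuNZ@Gel and 26.6 and 27.3 RPM in Gel and was not called (-0.19); without CuNZ@Gel replicate 2 it was lower, at -0.36. Region 1 of Cdh18 was lower, with 1.94 and 1.78 RPM in CuNZ@Gel, against 3.21 and 3.96 RPM in Gel, and its change of -0.68 (adjusted p = 0.0315) was lost without CuNZ@Gel replicate 2, Gel replicate 1 or Gel replicate 2 and on library totals (-0.47).
The sum over Cdh18 (-0.25) and those over Cdh9 (0.06), Cdh10 (-0.28) and Cdh22 (-0.26) were not called.
Cdh6, Cdh8 and Cdh11 were not tested. Cdh11, the osteoblast cadherin, had 27 and 6 reads in CuNZ@Gel and 5 and 3 reads in Gel, so that a single library carried most of them. Cdh8 likewise had 13 and 0 reads in CuNZ@Gel and 0 and 0 reads in Gel, and Cdh6 had 3 and 24 reads in CuNZ@Gel and 2 and 0 reads in Gel.

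Of the remaining cadherins, Cdh23 is the partner of Pcdh15 in the tip link, Cdh17 is the liver-intestine cadherin and Cdh13 is anchored to the membrane by a lipid. None of the 3 genes was called in its sum, and Cdh23 and Cdh17 each held regions called in both directions. Region 2 of Cdh23 (chr10:60140590-60141786) had 18.2 and 22.2 RPM in CuNZ@Gel, against 29.5 and 35.5 RPM in Gel, a change of -0.66 ± 0.12 (SE; adjusted p = 1.06e-05). It had the second highest mean level of the member regions, and it stayed lower with the trend removed (-0.36, adjusted p = 0.0128) and under every omission of a library. Region 7 of Cdh23 (chr10:60409240-60409644) had 9.34 and 8.88 RPM in CuNZ@Gel, against 2.04 and 2.72 RPM in Gel. Its change of 1.59 ± 0.22 (SE; adjusted p = 3.06e-08) was called under every scaling and every omission. Region 6, with 4.61 and 4.89 RPM in CuNZ@Gel, against 1.40 and 1.73 RPM in Gel, was also called higher (adjusted p = 0.000166; a change of 0.98 with the trend removed). Scaled to the background, region 6 changed by 0.40 and was not called. The groups overlapped in none of these 3 regions. Over its 10 regions Cdh23 had 52.7 and 54.4 RPM in CuNZ@Gel, against 55.1 and 58.4 RPM in Gel, and the change of -0.08 was not called (adjusted p = 0.399). It turned to 0.25 with the trend removed and 0.20 on library totals, both called. Scaled to the background the sum was called lower, at -1.12.

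Cdh17 region 1 had 4.25 and 3.38 RPM in CuNZ@Gel, against 2.45 and 1.67 RPM in Gel, a change of 0.66 (adjusted p = 0.0348). That call was lost without CuNZ@Gel replicate 1 (adjusted p = 0.169), Gel replicate 1 (0.0589) or Gel replicate 2 (0.333) and with the trend removed (0.163). Region 2 had 3.40 and 3.55 RPM in CuNZ@Gel, against 6.65 and 6.07 RPM in Gel, a change of -0.72 (adjusted p = 0.00582) that was lost without Gel replicate 1 (0.108) or Gel replicate 2 (0.0506) and on library totals (0.0704). The sum over Cdh17 changed by -0.05 and that over Cdh13 by 0.41, neither of them called (adjusted p = 0.824 and 0.193).

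**Figure D3:**
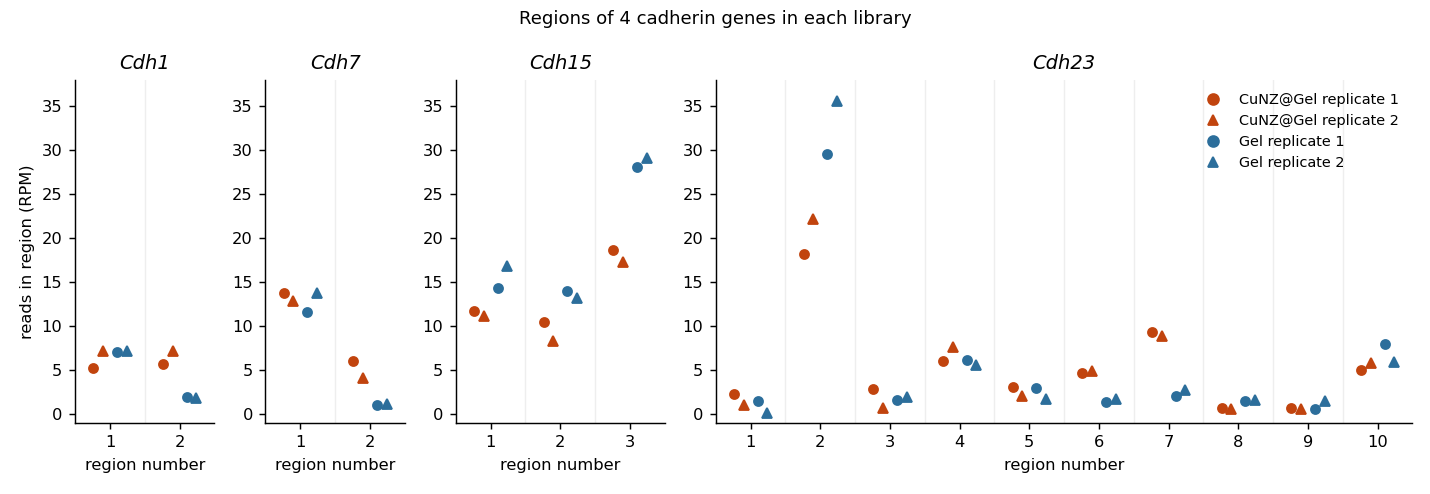
Normalised read counts, in RPM, of the regions of Cdh1, Cdh7, Cdh15 and Cdh23 in the 2 CuNZ@Gel and 2 Gel libraries, with 1 panel per gene and regions in order along the chromosome. In Cdh1, Cdh7 and Cdh23 regions called higher stand beside regions that were not called or were lower, whereas all 3 regions of Cdh15 were lower in CuNZ@Gel.

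The clustered protocadherins lie on chromosome 18, where their 19 regions spanned 815 kb. RefSeq lists 57 of these protein-coding genes, and 17 had a region. These genes resemble each other closely, and how reads that match several of them were counted is not given in the sources used here. Of 16 tested clustered genes, 2 were higher and 2 lower, against the 20.5% and 36.1% of all genes. With the trend removed, 0 were higher and 3 lower (Pcdhgc3, Pcdha8 and Pcdhga1), against 24.2% and 22.8%. The genes lower on the authors' scale, Pcdhgc3 and Pcdha8, had the most reads of the clustered genes in every library. The higher genes, Pcdhb4 and Pcdhb1, had at most 21 reads in a library.
Pcdhgc3, a C-type gamma gene expressed more widely than the others, had 15.9 and 15.8 RPM in CuNZ@Gel, against 23.2 and 23.0 RPM in Gel. The groups did not overlap and the libraries of each group lay close together. The change was -0.52 ± 0.12 (SE; adjusted p = 0.00128) and was called under every omission, but not on library totals (-0.25, adjusted p = 0.102). With the trend removed it was -0.48 when fitted over genes (adjusted p = 0.00273) and -0.31 when fitted over regions (adjusted p = 0.0578). Pcdha8, an alternative alpha gene, had 10.7 and 10.6 RPM in CuNZ@Gel, against 15.1 and 14.9 RPM in Gel, a change of -0.46 ± 0.15 (SE; adjusted p = 0.0112) lost without Gel replicate 1 (0.0892) or Gel replicate 2 (0.0735) and on library totals (-0.20, adjusted p = 0.278).
Pcdhb4 had 2.42 and 1.87 RPM in CuNZ@Gel, against 0.992 and 0.309 RPM in Gel, and was higher by 0.96 ± 0.32 (SE; adjusted p = 0.0152). Pcdhb1 had 6 and 13 reads in CuNZ@Gel and 1 and 0 reads in Gel. It passed the filter on low values only through the CuNZ@Gel libraries, so its change of 0.91 ± 0.36 (SE) is a description. Neither gene was called with the trend removed or scaled to the background (0.40 for Pcdhb4 and 0.67 for Pcdhb1); the call of Pcdhb4 was also lost without CuNZ@Gel replicate 1 or Gel replicate 2, and that of Pcdhb1 without CuNZ@Gel replicate 2, Gel replicate 1 or Gel replicate 2.

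The 11 beta genes held 12 regions, and no beta region exceeded 2.60 RPM in any library. Of these regions 9 had a peak in a single library and 3 in a pair of libraries. Among the gamma genes, Pcdhgb8 had 6.06 and 6.40 RPM in CuNZ@Gel and 6.07 and 6.13 RPM in Gel and was not called (0.03). Pcdhga1 had 3.76 and 6.40 RPM in CuNZ@Gel, against 7.52 and 6.56 RPM in Gel, and was not called (-0.44, adjusted p = 0.102). It was called lower with the trend removed, at -0.63 (adjusted p = 0.0214), and changed by -0.75 without CuNZ@Gel replicate 2. Pcdhga6 changed by 0.08 without a call. Pcdha10 changed by -0.03. The not called beta genes Pcdhb3, Pcdhb5, Pcdhb12, Pcdhb14, Pcdhb16, Pcdhb17, Pcdhb21 and Pcdhb22 changed by -0.36 to 0.09. Pcdhb6, with 9 and 6 reads in CuNZ@Gel and 3 and 12 reads in Gel, and Pcdhgb6, with 4 and 4 reads in CuNZ@Gel and 1 and 9 reads in Gel, were not tested.

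**Figure D4:**
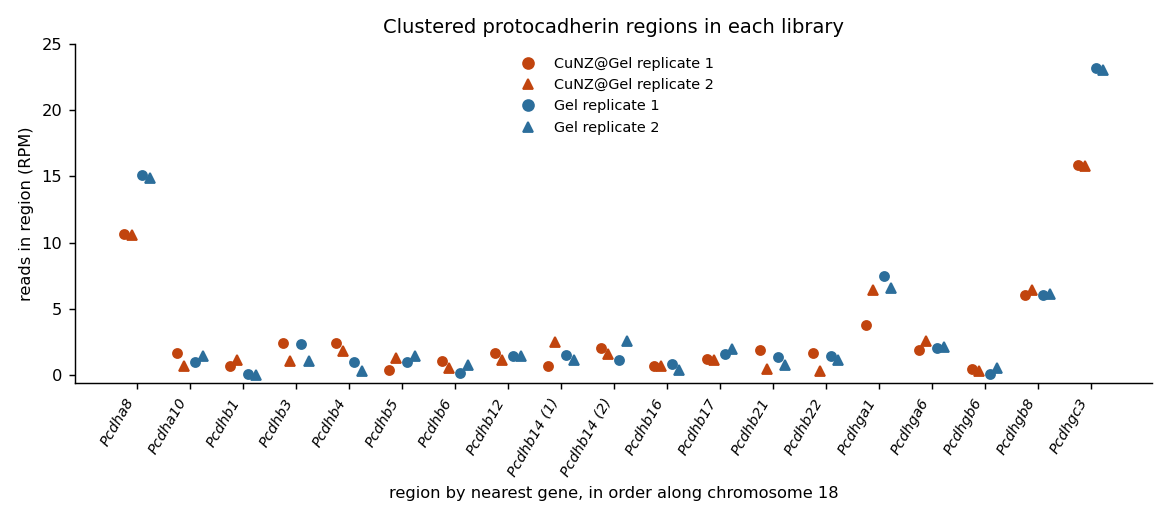
Normalised read counts, in RPM, of the 19 regions of the clustered protocadherins in the 2 CuNZ@Gel and 2 Gel libraries, in order along the array. Pcdhgc3 and Pcdha8 stand above the other regions and were lower in CuNZ@Gel, and no beta region exceeded 2.60 RPM.

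Most member regions were weak and had a peak in few libraries. Their median level was 1.46 on the log2(RPM + 1) scale, against 2.46 over all regions, and their median width was 360 bases, against 485 bases. The authors called peaks per library. A peak stood in all 4 libraries at 22 of the 105 member regions, against a background of 39.6% of all regions. Only Pcdh7 region 19 had a peak in both CuNZ@Gel libraries and no Gel library (2.28% of all regions), with 5.94 and 6.48 RPM in CuNZ@Gel, against 2.68 and 2.47 RPM in Gel. A peak in both Gel libraries and no CuNZ@Gel library stood at 13 member regions, or 12.4%, against 11% of all regions. By library, 30 and 50 of the 105 member regions had a peak in CuNZ@Gel, against 68 and 65 in Gel, where the libraries were deeper. Of all 80929 regions, 41181 and 51924 had a peak in CuNZ@Gel, against 60777 and 58614 in Gel.

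Calls were also counted by level. Of 16 tested member regions with a mean level of at least 3 on the log2 scale, 5 were higher and 7 lower, against 15.3% higher and 47.8% lower over all regions of that level. Of 77 member regions below that level, 18 were higher and 4 lower, against 25.1% and 4.73%. Across the 93 tested member regions the correlation of change with level was -0.20, and across all 77014 it was -0.44; these are descriptions, since regions share libraries and are not replicates.

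**Figure D5:**
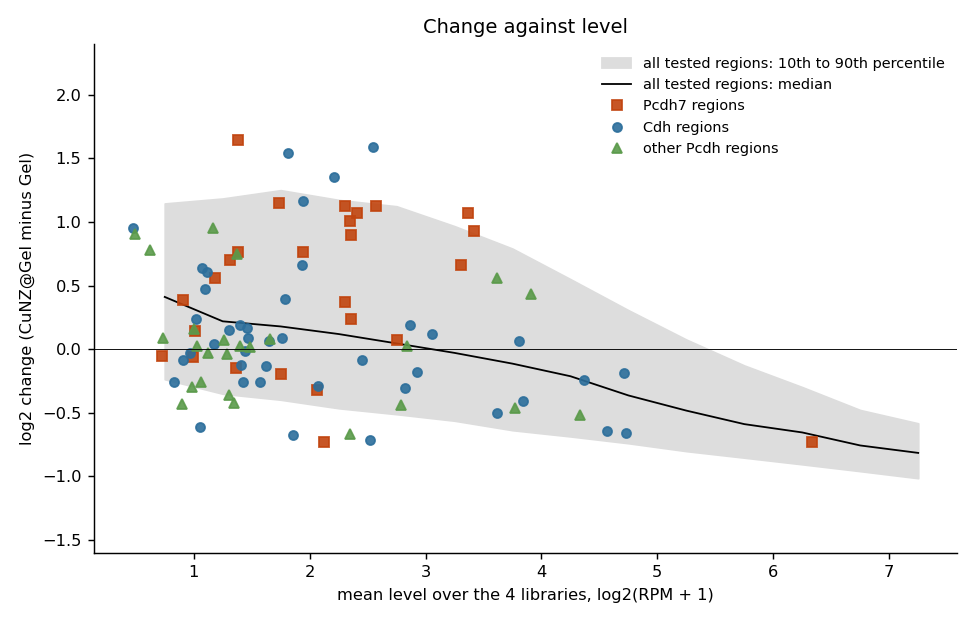
Change, CuNZ@Gel minus Gel, in log2 units against mean level on the log2(RPM + 1) scale for the 93 tested member regions, with the median (line) and the 10th to 90th percentiles (shading) of all tested regions by level. The Pcdh7 region with the most reads lies near the general median of its level (-0.73 against -0.65), and the Pcdh7, Cdh23, Cdh7 and Cdh1 regions called higher lie above it.

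Genes that work with cadherins were counted from lists of their partners and regulators. Each count is to be read against the 20.5% higher and 36.1% lower of all 25900 tested genes, or 24.2% and 22.8% with the trend removed. Of 15 tested catenins and other junction adaptors, 3 were higher and 5 lower, with a median change of -0.07, against -0.10 over all genes. Ctnnb1, beta-catenin, had 19.3 and 26.1 RPM in CuNZ@Gel, against 49.6 and 58.8 RPM in Gel, and was lower at -1.23 ± 0.12 on the log2 scale (SE; adjusted p = 6.57e-08). Ctnna1, alpha-catenin, had 16.8 and 21.8 RPM in CuNZ@Gel, against 29.8 and 36.9 RPM in Gel (-0.76), and Vcl, the actin linker vinculin, had 105 and 99.1 RPM in CuNZ@Gel, against 153 and 152 RPM in Gel (-0.58). These 3 stayed lower with the trend removed, at -1.01, -0.64 and -0.15. The counts moved with the scaling: with the trend removed, 6 catenins and adaptors were higher and 3 lower.
Of 18 tested other members of the cadherin superfamily, 5 were higher and 3 lower, and 5 and 2 with the trend removed. Dsc3, a desmosomal cadherin of skin, had 25.7 and 26.6 RPM in CuNZ@Gel, against 10.9 and 9.53 RPM in Gel, and was higher by 1.28 (adjusted p = 1.31e-07). Clstn3, a calsyntenin of synapses, was lower at -0.75 on the log2 scale, and Cdhr3 at -0.49, which was -0.08 and not called with the trend removed.
Of 7 tested transcription factors that repress E-cadherin, 2 were higher and 2 lower, and 2 and 1 with the trend removed. Zeb1 was higher at 0.60, a call lost without CuNZ@Gel replicate 2 (0.35) or Gel replicate 2 (0.52) and with the trend removed (0.43, adjusted p = 0.0723), and Tcf3 lower at -0.67, whereas Tcf4 was lower at -0.32 and higher at 0.15 with the trend removed.
Of 11 tested chromatin regulators of the protocadherin clusters, 0 were higher and 9 lower, at a median of -0.46; with the trend removed 0 were higher and 4 lower. Smc3, a cohesin subunit, had 46.6 and 42.4 RPM in CuNZ@Gel, against 78.3 and 85.9 RPM in Gel, and was lower at -0.87 (adjusted p = 2.43e-08; -0.53 with the trend removed). Stag1, another cohesin subunit, and Nipbl, the cohesin loader, were lower at -0.46 and -0.41, and were not called with the trend removed.
Of 14 tested proteases, kinases and phosphatases that act on cadherins and catenins, 3 were higher and 10 lower, and 7 and 3 with the trend removed. Adam10, which sheds E-cadherin, and Aph1a, a subunit of gamma-secretase, were lower at -0.60 and -0.62 and stayed lower with the trend removed, while Fer, a kinase of catenins, was lower at -0.43 and not called with the trend removed (0.01).

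Regions near markers of the labelled cell type carried reads in every library. Of 12 macrophage markers 11 had a region, and their summed level was 1105 and 1118 RPM in CuNZ@Gel, against 1410 and 1418 RPM in Gel. Tyrobp had no region. Of the 11, 1 was higher, Itgam (0.17), and 7 were lower, among them Ptprc (-0.60), Cd14 (-0.60) and Fcer1g (-0.76). With the trend removed 3 were higher (Itgam, Lyz2 and Csf1r, at 0.60, 0.31 and 0.26) and 4 lower. For these and the other markers below, the shares over all 25900 tested genes were 20.5% higher and 36.1% lower. With the trend removed those shares were 24.2% and 22.8%. Of 10 epithelial markers 5 had a region, summing to 122 and 114 RPM in CuNZ@Gel, against 80.9 and 83.3 RPM in Gel, nearly all of it Cldn4 with 108 and 99.5 RPM in CuNZ@Gel, against 67.8 and 67.7 RPM in Gel (0.61). Krt5, Krt14, Krt18, Krt19 and Grhl2 had no region, and Epcam was lower at -0.84. Of 10 endothelial markers 8 had a region, summing to 220 and 223 RPM in CuNZ@Gel, against 207 and 212 RPM in Gel, with Cldn5 (2.06), Kdr (1.01) and Tek (0.74) higher, Vwf lower (-0.21, adjusted p = 0.0119) and Emcn and Sox17 without a region. Cldn5 passed the filter on low values only through the CuNZ@Gel libraries, and Vwf was higher with the trend removed, at 0.19. Of 10 fibroblast markers 6 had a region, summing to 113 and 108 RPM in CuNZ@Gel, against 95.8 and 95.9 RPM in Gel, with Col3a1 (0.99), Prrx1 (0.79) and Twist2 (0.33) higher and Col1a2, Dcn, Lum and Thy1 without a region. Of 10 neuron markers 8 had a region, summing to 66.1 and 63.6 RPM in CuNZ@Gel, against 67.1 and 62.4 RPM in Gel, with Snap25 (0.59) and Nefl (0.89) higher and Elavl3 (-0.34) and Tubb3 (-0.35) lower. Leaving out single libraries ended the calls of Epcam, Vwf, Twist2, Tubb3, Nefl, Elavl3 and Snap25, with smallest changes in size of -0.47, -0.14, 0.27, -0.19, 0.41, -0.32 and 0.42; it was Gel replicate 2 alone for Snap25. With the trend removed Prrx1 (adjusted p = 0.055), Twist2 (0.0706) and Nefl (0.0978) were not called, and the counts were 1 higher and 1 lower epithelial marker, 5 higher and 0 lower endothelial, 2 higher and 0 lower fibroblast and 1 higher and 2 lower neuron markers. The part of any of these in the cadherin results was not tested.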

How the data were processed

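ATAC-seq values of 4 libraries were used. The build was GRCm39 and the tools included MACS2 2.2.8, Bowtie2 2.3.4.3 and Picard 2.27.5, per the submitters' processing notes. The authors deposited log2 values per region, here found to be log2(RPM + 1), with rows named by a gene; 100% of values of up to 20 reads came out within 0.1 of whole reads. The deposited peak lists give a score, a fold enrichment, and −log10 of the p-value and q-value per peak, which are the authors' own. Region coordinates came from merging the 4 peak lists (bedtools 2.31.1), which gave the same 80929 regions in the same order. Gene sums left out 4 rows that carry no name.

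Regions and genes (log2 of summed RPM + 1) were tested with limma 3.58.1 (R 4.3.3, trend, two-sided, no covariates; 77014 regions and 25900 genes, each reaching 10 reads, at the median depth, in 2 libraries and 15 reads in all). Values with the trend removed came from cyclic loess, run separately on regions and on gene values. On simulated data with 200 of 77014 regions changed, the fit recovered 0%, 44% and 86% of regions changed 1.5-, 2- and 3-fold. Of the calls at 2- and 3-fold, 7.37% and 2.27% were false. With 200 of 25900 genes changed it recovered 62.5%, 87% and 93.5%, with 6.02%, 4.92% and 6.5% of calls false. In the data 16314 regions were called higher and 16855 lower, so the adjustment differs and these shares do not give the sensitivity here. Named genes were a preset set, the largest called rises and falls, and the genes with the most regions; from related lists, up to 3 with the smallest adjusted p. Pcdh20, Tubb3, Vwf, Cdh6, Cdh8 and Pcdh7 regions 8, 12, 13, 19 and 24 were named after their values were seen, as were other regions of named genes. Members and lists were chosen with earlier results of these data known. Floors of 3 reads cover counting error only.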

Additional observations from a re-analysis of the deposited data

How the results depend on the processing

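Depth limits these results: the CuNZ@Gel libraries hold fewer reads than the Gel libraries, and most members are weak. A pseudocount of 0.5 or 5, no filter and voom weights moved no count of called member regions or genes by over 1.5 times. Voom, on recovered reads at the authors' scale, gave 24 higher and 10 lower regions and 8 higher and 4 lower genes. Median-of-ratios scaling did not move them so far either, but it could hardly do so, being close to the authors' scale. With it 1 read was worth 0.120 and 0.0903 RPM in CuNZ@Gel and 0.0582 and 0.0617 RPM in Gel. Member regions called higher numbered 3 and called lower 39 with background scaling, and 3 were lower on library totals, against 23 and 11. Member genes called higher numbered 12 on library totals, 0 with background scaling and 4 under the stricter filter, against 7; those called lower numbered 1, 26 and, by the strongest region, 8, against 4. Genes of the related lists called higher numbered 24 on library totals, 0 with background scaling, 20 with the trend removed and 6 by the strongest region, against 13; those called lower numbered 17, 53 and 13 under the first 3, against 29. The median of all genes was -0.10, 0.15 on library totals and -1.06 with background scaling. Among changes called in at least one of the 2 fits compared, signs turned with background scaling for Cdh1 (-0.53), Cdh4 (-0.93), Cdh5 (-0.57), Cdh7 (-0.60), Pcdh12 (-0.41), Pcdh15 (-0.57), Pcdh7 (-0.98), Pcdhb14 (-0.73), Pcdhga6 (-0.63), Pcdhgb8 (-0.88), Zeb1 (-0.33), Cldn4 (-0.44), Tek (-0.19), Prrx1 (-0.0408), Twist2 (-0.66) and Snap25 (-0.35), for Cdh7 region 1 (-0.91), Cdh17 region 1 (-0.12), Pcdh15 region 3 (-0.55) and Pcdh7 regions 8 (-0.0217) and 24 (-0.0039), by the strongest region for Cdh1 (-0.18) and Pcdh7 (-0.73), and for Cdh23 on library totals (0.20) and with the trend removed (0.25). With the trend removed Vwf (0.19; 0.0709 on library totals), Tcf4 (0.15), Fer (0.0053) and Nipbl (0.0007) turned too. The cause of these shifts was not tested.

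Leaving out each library in turn gave 14 to 22 higher and 4 to 10 lower member regions, 1 to 4 higher and 2 to 6 lower member genes, and 6 to 10 higher and 26 to 30 lower genes of the related lists; the library left as the only one of its group was assumed to vary like the other group. Peaks that cover at least 50% of a region gave 11 member regions with a peak in all 4 libraries, against 22, and 2 with a peak only in both CuNZ@Gel libraries, against 1; a stricter threshold also gave 2 there. No library was left out for the peak counts. The shares of all regions and genes called with a library left out are not given here, so the counts under omission have no background. With the replicate number as a block, the counts were 23 higher and 11 lower member regions, 7 higher and 4 lower member genes, and 14 higher and 29 lower genes of the related lists, and no call of a named gene or region changed. The labels do not say that a number marks a shared culture or day, so the block rests on a shared number only; the deviations of same-numbered libraries correlated at 0.0163 over regions. The alternatives on the related lists were chosen after seeing the data.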
